A study of Mus musculus with 8 samples.

Results

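The genes described here are 50 genes of DNA replication and S phase, chosen by name from the known machinery that licenses, fires and copies replication origins. All 50 were found among the 23929 gene symbols of the deposited tables, each as a single entry, and all 50 passed the filter on low values that left 10479 genes for testing. Their RNA was measured in 8 libraries of 4 untreated mouse pro-B cell lines of bone marrow origin on the 129SV background. Pro-B cells are the B cell precursors that assemble the immunoglobulin heavy chain (IgH) locus. One line carries the genotype Eµ-/-, which names the intronic enhancer of the IgH locus. A pair of lines, titled CBE-/- (2) and CBE-/- (1) and called CBE-2 and CBE-1 here, carries the genotype IGCR1-/-. IGCR1 names an intergenic control region of the IgH locus, and CBE in the titles stands for CTCF-binding elements. The fourth line is labelled wild type (WT), and no allele or agent beyond these is named for any line. Each line gave 2 libraries, and each CBE line was also set against WT singly. Since Eµ was deleted in 1 line and the WT is 1 line, genotype and line cannot be told apart, and the labels do not say whether a line is 1 clone.

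DNA replication starts at origins bound by the origin recognition complex (ORC), on which Cdc6 and Cdt1 load the ring-shaped MCM helicase during G1. At the start of S phase the cyclin E kinase and the Cdc7-Dbf4 kinase turn the loaded rings into active helicases with Cdc45 and the GINS complex, and polymerases then copy the strands with the sliding clamp Pcna. Many of these genes are transcribed at the G1 to S boundary by E2F factors, so their summed level in a culture is widely used as a sign of how many cells are dividing. In bulk RNA, fewer cells in S phase and less RNA per cell cannot be told apart.

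Values are FPKM, which divide a gene's fragments by its length and by the size of the library, so levels can be compared between genes. Read as counting error alone, the deposited intervals imply between 31.3 and 49.5 M reads per library. The 95% interval half-widths of the members were between 0.958% and 7.51% of the value. These do not cover the spread between libraries. Their widths did not follow the level alone, with 4.34% to 4.57% for Rpa1 and 1.07% to 1.61% for Mcm5. The implied depths are therefore approximate. All 7 pro-B markers used here (Cd79a, Cd79b, Vpreb1, Igll1, Pax5, Ebf1 and Il7r) had 1 FPKM or more in every line, and their summed FPKM was between 2369 and 3498 over the libraries. The 5 T cell, 3 erythroid and 4 stromal markers summed to at most 0.134 FPKM in any library. The 4 myeloid markers summed to between 2.01 and 3.15 FPKM in Eµ-/- cells, 1.61 and 2.42 FPKM in CBE-2, 3.79 and 8.84 FPKM in CBE-1 and 3.27 and 6.71 FPKM in WT, with Csf1r and Cd14 under 0.1 FPKM in every line. The part of these levels in the results was not tested.

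Promoters of 300 bases, 250 before and 50 after the annotated start, were matched by symbol for 41 members in RefSeq (GRCm38.p6). The members Gmnn, Mcm4, Gins1, Gins2, Gins4, Ccne2, Rfc2, Prim2 and Pole were not matched. E2F sites, searched as TTTCCCGC, TTTGGCGC and TTTCGCGC on both strands, were present in the promoters of 15 of the 41 members (36.6%), against 573 of 27025 genes of the table (2.12%). The 15 were Orc1, Orc3, Cdc6, Cdt1, Mcm3, Mcm5, Mcm6, Mcm7, Gins3, Rfc3, Pola1, Pold1, Pold3, Pole2 and Lig1. The CCAAT box (CCAAT, both strands) was in 24 of 41 members (58.5%) and 41.1% of all genes, and the CHR element (TTTGAA, both strands), known from genes of late G2 and mitosis, was in 6 of 41 (14.6%) and 20.2% of all genes. In a list of 30 genes of G2 and mitosis, 24 had promoters in the table, of which 1 (4.17%) held an E2F site, 20 (83.3%) a CCAAT box and 17 (70.8%) a CHR element. A match is a stretch of letters and not a measured binding site. The promoters below are those of 3 MCM subunits that held an E2F match, of the loading factor Cdc6, and of the 2 members with the largest fall and the largest rise against WT, in lower case from 5′ to 3′ on the gene's strand with the E2F matches in capitals. The MCM promoters shown held 2 or 3 matches each, overlapping on opposite strands in Mcm5 and, for its first pair, in Mcm6. Mcm2, whose promoter is not shown, held 0, and Mcm4 was not matched. Cdc6 and Pole2 held 1 match each, and Ccne1 held 0 in this window.
Mcm3 (GRCm38.p6 chr1:20820263-20820562, minus strand): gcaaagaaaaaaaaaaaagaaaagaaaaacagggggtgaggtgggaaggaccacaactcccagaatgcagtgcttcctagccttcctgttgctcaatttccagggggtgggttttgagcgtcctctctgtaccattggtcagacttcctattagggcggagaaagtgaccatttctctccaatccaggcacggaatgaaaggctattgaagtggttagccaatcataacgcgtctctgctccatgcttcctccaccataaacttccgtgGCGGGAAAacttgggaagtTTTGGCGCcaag
Mcm5 (GRCm38.p6 chr8:75109259-75109558, plus strand): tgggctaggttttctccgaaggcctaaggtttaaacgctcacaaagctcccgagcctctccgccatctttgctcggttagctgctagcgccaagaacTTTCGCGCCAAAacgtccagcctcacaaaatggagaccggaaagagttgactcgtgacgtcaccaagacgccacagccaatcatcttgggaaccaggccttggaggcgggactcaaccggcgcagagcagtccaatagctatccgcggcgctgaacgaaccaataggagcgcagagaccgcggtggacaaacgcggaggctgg
Mcm6 (GRCm38.p6 chr1:128359656-128359955, minus strand): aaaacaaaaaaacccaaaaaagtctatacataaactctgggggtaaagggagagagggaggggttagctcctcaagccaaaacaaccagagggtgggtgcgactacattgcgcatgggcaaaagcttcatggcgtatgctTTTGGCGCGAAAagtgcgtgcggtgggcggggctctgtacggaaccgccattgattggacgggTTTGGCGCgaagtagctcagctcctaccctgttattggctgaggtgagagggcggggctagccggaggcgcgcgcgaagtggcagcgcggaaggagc
Cdc6 (GRCm38.p6 chr11:98907901-98908200, plus strand): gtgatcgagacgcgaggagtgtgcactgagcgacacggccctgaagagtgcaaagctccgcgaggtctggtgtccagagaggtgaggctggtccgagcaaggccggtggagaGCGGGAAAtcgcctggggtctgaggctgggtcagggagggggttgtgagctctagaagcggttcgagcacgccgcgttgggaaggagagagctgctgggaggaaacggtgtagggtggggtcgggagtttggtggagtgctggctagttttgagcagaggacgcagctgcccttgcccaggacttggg
Pole2 (GRCm38.p6 chr12:69228141-69228440, minus strand): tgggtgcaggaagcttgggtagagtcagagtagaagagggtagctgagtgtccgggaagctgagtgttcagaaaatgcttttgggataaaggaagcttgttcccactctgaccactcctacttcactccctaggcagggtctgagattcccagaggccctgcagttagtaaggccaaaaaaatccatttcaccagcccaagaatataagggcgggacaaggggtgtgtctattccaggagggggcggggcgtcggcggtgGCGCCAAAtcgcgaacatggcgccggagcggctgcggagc
Ccne1 (GRCm38.p6 chr7:38107441-38107740, minus strand): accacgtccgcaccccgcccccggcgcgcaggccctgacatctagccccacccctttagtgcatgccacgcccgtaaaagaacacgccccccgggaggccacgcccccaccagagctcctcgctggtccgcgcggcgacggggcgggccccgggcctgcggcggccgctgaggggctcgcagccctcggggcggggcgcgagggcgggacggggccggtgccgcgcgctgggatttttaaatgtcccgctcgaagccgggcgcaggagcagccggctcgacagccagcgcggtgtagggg

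All 50 members were expressed in every library. Over the 8 libraries the mean FPKM of a member had a median of 50.7, with 26 members at 50 or more, 9 at 100 or more and 1 under 10. Pcna, the sliding clamp that holds polymerases on DNA, had the highest mean, with 365 and 276 FPKM in Eµ-/- cells, 425 and 365 FPKM in CBE-2, 437 and 329 FPKM in CBE-1 and 297 and 288 FPKM in WT. Orc1, the ORC subunit whose protein is cyclically degraded in mammalian cells, had the lowest, with 9.19 and 4.50 FPKM in Eµ-/- cells, 9.96 and 8.61 FPKM in CBE-2, 10.1 and 6.17 FPKM in CBE-1 and 7.32 and 6.49 FPKM in WT. The line means of 43 members lay within 1.5-fold of each other, and the median ratio of the highest to the lowest line was 1.30. One member, Pole2, differed at least 2-fold between lines. CBE-2 had the highest mean for 33 members, Eµ-/- cells for 10, CBE-1 for 4 and WT for 3. WT had the lowest mean for 30, Eµ-/- cells for 9, CBE-1 for 6 and CBE-2 for 5. The same ranking of lines was not counted over all genes. The members' summed FPKM was 3496 and 2876 in Eµ-/- cells, 3736 and 3465 in CBE-2, 3653 and 3200.1 in CBE-1 and 3184 and 3159 in WT, so that the libraries of Eµ-/- cells differed from each other by more than any 2 line means did. Within lines the coefficient of variation of a member had a median of 7.38%.

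**Figure D1:**
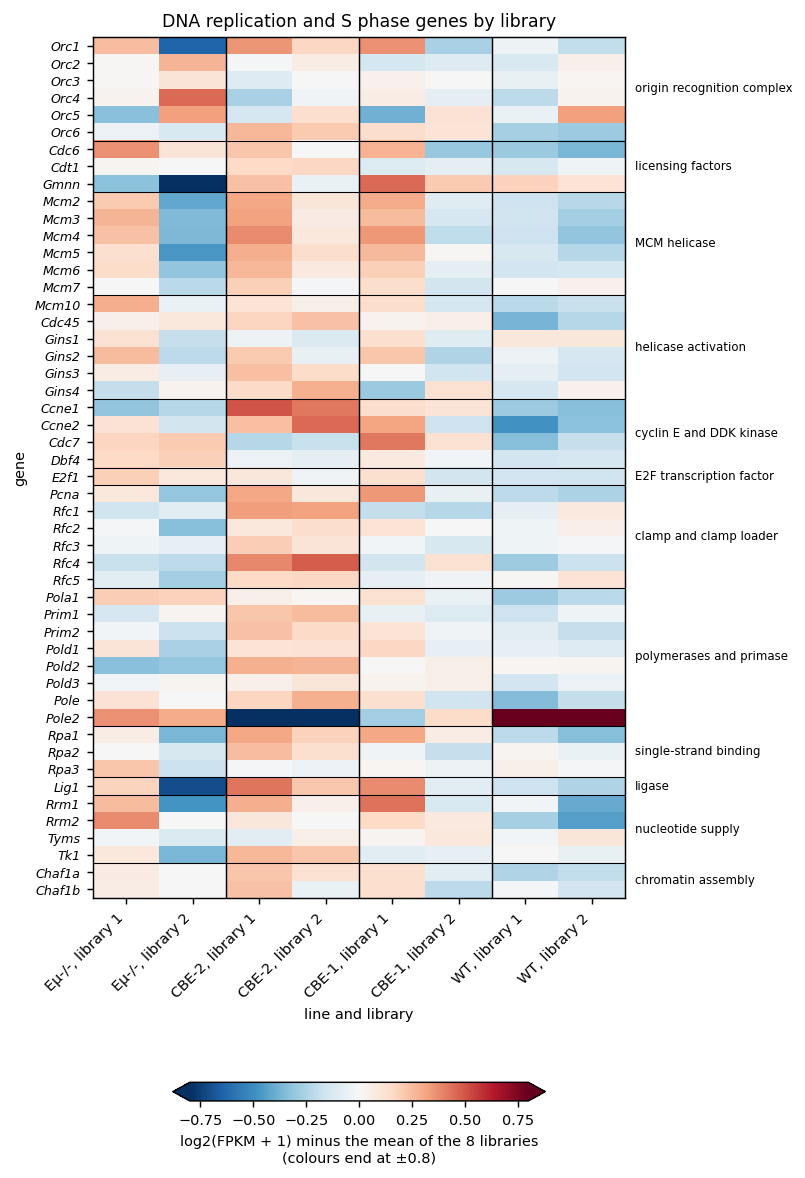
Each row is 1 of the 50 members, grouped by role, and each column 1 of the 8 libraries; colour gives log2(FPKM + 1) minus the member's mean over the libraries. Pole2 stands out, high in both WT libraries and low in both CBE-2 libraries, and WT has the lowest mean of the 4 lines for 30 of the 50 members. The same count was not made over all genes.

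In the CBE lines against WT, cyclins E1 and E2, Cdc45, Orc6, Rfc4, Rrm2 and Chaf1a rose, by 1.24-fold to 1.53-fold on the FPKM + 1 scale, and the polymerase epsilon subunit Pole2 fell to 0.228 of its WT level. These are 7 members higher and 1 lower at a Benjamini-Hochberg adjusted p under 0.05 with limma over all 10479 genes. Of all genes 12.5% were called higher, 9.78% lower and 22.3% either way. In this fit, without a block for the replicate number, the members' share called either way (8 of 50, or 16%) was below that of all genes. Their share called higher (7 of 50) was near that of all genes. The median log2 difference of the members was 0.17, beside 0.03 for all genes tested, and 43 of 50 were positive. Without overlap between the libraries compared, 21 of 50 members lay above WT and 1 of 50 below, beside 25% and 18.8% of all genes. The first share was above that of all genes and the second below it. With the replicate number of the libraries as a block, a pairing that the data bear out, 16 of 50 members were called, 15 higher and 1 lower. Of all genes 17.9% were called higher with the block, 15.1% lower and 33% either way. The members' share called higher was then above that of all genes, and their share called either way near it. The members called only with the block were Cdc6, Mcm4, Pcna, Pola1, Prim2, Pole, Rpa1 and Rrm1, all higher. The calls of Ccne1 and Pole2 held in every one of the 8 fits that left out a library.

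Taken singly, CBE-2 had 7 of 50 members higher and 1 of 50 lower than WT. Of all genes 10.5% and 8.19% were called higher and lower there and 18.7% either way. CBE-1 had 4 of 50 higher and 1 of 50 lower, with 10.9% and 8.54% of all genes and 19.4% either way. The median log2 difference was 0.27 in CBE-2 (all genes 0.04) and 0.16 in CBE-1 (all genes 0.02). Without overlap, 37 members lay above WT and 3 below in CBE-2, beside 40.2% and 30.4% of all genes. In CBE-1 they were 23 and 4, beside 34.1% and 28.6% of all genes. The 2 comparisons share the WT libraries. With the replicate block, 19 of 50 members were called in CBE-2, 18 higher and 1 lower. Of all genes 15.7% were called higher, 13.1% lower and 28.8% either way. In CBE-1 the block called 8 of 50, 7 higher and 1 lower, with 15.9% of all genes called higher, 14.1% lower and 30% either way. With the block, the members' share called higher was above that of all genes in CBE-2 and near it in CBE-1. The block added Cdc6, Cdt1, Mcm4, Gins3, Pcna, Rfc1, Prim1, Prim2, Pold2, Rpa1 and Rrm2 in CBE-2 and Pcna, Rpa1 and Rrm2 in CBE-1, all higher. Without it the members called in CBE-2 were Ccne1, Ccne2, Cdc45, Chaf1a, Orc6, Pole, Rfc4 and Pole2, and in CBE-1 Ccne1, Cdc45, Cdc7, Orc6 and Pole2. Ccne1 and Pole2 in CBE-2, and Pole2 in CBE-1, kept their calls in all 8 leave-out fits. Each of the other calls was lost without at least 1 library of the lines compared, with adjusted p-values reaching 0.0650 for Orc6 in CBE-2 (without WT library 2 or CBE-2 library 1) and 0.242 for Cdc45 in CBE-1 (lost without any single library of WT or of the CBE lines).

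In Eµ-/- cells against WT, the origin-firing kinase subunits Cdc7 and Dbf4, the helicase cofactor Cdc45, the polymerase alpha catalytic subunit Pola1 and the ribonucleotide reductase subunit Rrm2 rose, and Gmnn, Pold2 and Pole2 fell. That is 5 higher and 3 lower, with 11.3% and 10.4% of all genes called higher and lower and 21.8% either way. Scaling moved this split. It was 2 higher and 3 lower with median-of-ratios scaling, 6 and 2 with rescaling to TPM and 4 and 2 with quantile normalization. In the same order, 2327, 2291 and 2422 of all 10479 genes were called either way. The median log2 difference of the members was 0.08 (all genes 0.01). Without overlap, 16 members lay above WT and 8 below, beside 32.6% and 29.9% of all genes. With the replicate block 9 members were called, 6 higher and 3 lower, Cdc6 in addition, with 17.6% of all genes called higher, 16.4% lower and 34% either way. The call of Pole2 held without any single library and when the spread was taken from these 4 libraries alone, where it was the 1 member called. Each other call was lost without either WT library or either CBE-2 library, although the CBE libraries enter only through the shared estimate of the spread.

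**Figure D2:**
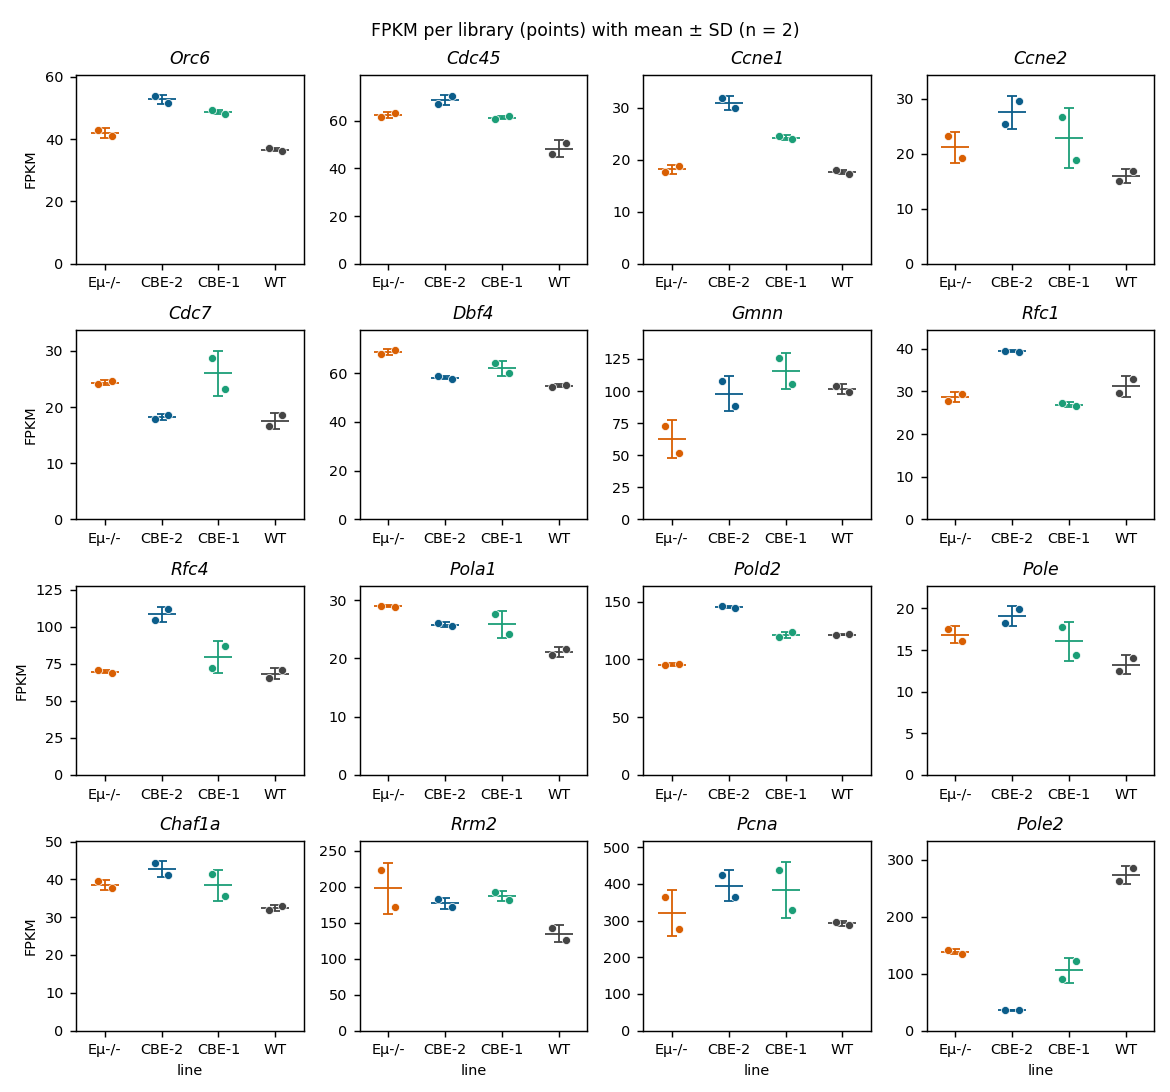
FPKM of 16 members in Eµ-/- cells, CBE-2, CBE-1 and WT, with points for the 2 libraries and bars for mean ± SD; each panel starts at 0. Ccne1 is raised in both CBE lines, Gmnn is lowest in Eµ-/- cells, and Pole2 is highest in WT and lowest in CBE-2.

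ORC marks the origins, and among its 6 subunits 1 was called. Orc6, the subunit least tightly bound in animal ORC, had 43.0 and 40.9 FPKM in Eµ-/- cells, 53.8 and 51.6 FPKM in CBE-2, 49.2 and 48.2 FPKM in CBE-1 and 37.0 and 36.3 FPKM in WT. All 6 mutant libraries exceeded both WT libraries. A like count over all genes was not made for the 6 libraries together, here or for the genes below. Orc6 rose in the CBE lines (by a log2 difference of 0.46 ± 0.07, adjusted p = 0.00439, lost without WT library 2 at adjusted p = 0.0641), in CBE-2 (0.51 ± 0.08) and in CBE-1 (0.40 ± 0.08), and its difference in Eµ-/- cells was 0.19 ± 0.08, adjusted p = 0.143. The other 5 subunits had log2 differences between -0.20 (Orc5) and 0.28 (Orc1) in the CBE lines and were not called in any comparison. The entries of Orc3, Orc4 and Orc5 overlap those of Akirin2, Acvr2a and Gm15421 in mm9, and the sources used here do not say how strand was treated in counting.

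Licensing is driven by Cdc6 and Cdt1, which load the MCM ring, and is held back by geminin (Gmnn), which binds Cdt1. Cdc6 had 16.8 and 13.9 FPKM in Eµ-/- cells, 15.2 and 12.9 FPKM in CBE-2, 15.8 and 10.2 FPKM in CBE-1 and 10.3 and 9.76 FPKM in WT. The Eµ-/- and CBE-2 libraries all exceeded WT, while CBE-1 library 2 lay between the WT libraries. Its log2 differences were 0.56 ± 0.20, adjusted p = 0.0949 in Eµ-/- cells (adjusted p = 0.02 with the replicate block) and 0.38 ± 0.18, adjusted p = 0.177 in the CBE lines (adjusted p = 0.0441 with the block). Cdt1 had 33.0 and 32.5 FPKM in Eµ-/- cells, 36.5 and 36.7 FPKM in CBE-2, 30.1 and 30.8 FPKM in CBE-1 and 29.7 and 31.7 FPKM in WT, without a call in any comparison, although the replicate block called it in CBE-2 (0.24, adjusted p = 0.0479).

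Gmnn lies at chromosome 13, 24843714 to 24853806 (mm9), and had 72.9 and 52.0 FPKM in Eµ-/- cells, 108 and 88.2 FPKM in CBE-2, 126 and 106 FPKM in CBE-1 and 104 and 98.9 FPKM in WT. Both Eµ-/- libraries lay below all 6 others, and differed between themselves. Gmnn fell in Eµ-/- cells against WT (-0.71 ± 0.19, adjusted p = 0.0377) and against the CBE lines (-0.78 ± 0.16, adjusted p = 0.0255). Both calls were lost without Eµ-/- library 2, without either WT library or without either CBE-2 library, and the second also without CBE-1 library 1, with adjusted p-values up to 0.181 and 0.109. The log2 difference from WT was between -0.95 and -0.47 over the leave-out fits. The ratio of Gmnn to Cdt1 FPKM was 2.21 and 1.60 in Eµ-/- cells, 2.96 and 2.41 in CBE-2, 4.18 and 3.44 in CBE-1 and 3.51 and 3.12 in WT. Within 150 kb of Gmnn, a window chosen after the values were seen, 4 other genes were tested, and 3 of them (Fam65b, BC005537 and Acot13) were called lower in Eµ-/- cells against WT. Of all genes 10.4% were called lower there. Fam65b had 11.1 and 15.0 FPKM in Eµ-/- cells, 23.2 and 20.8 FPKM in CBE-2, 21.3 and 20.8 FPKM in CBE-1 and 18.8 and 19.9 FPKM in WT, a log2 difference of -0.55 ± 0.14 against WT.

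The 6 MCM subunits form the ring of the replicative helicase. With limma 0 of 6 were called in any comparison without the block, and 0 had an unadjusted p under 0.05, while 6 of 6 had a positive log2 difference in the CBE lines, from 0.02 (Mcm7) to 0.39 (Mcm4). Mcm5 had 133 and 87.3 FPKM in Eµ-/- cells, 149 and 134 FPKM in CBE-2, 145 and 122 FPKM in CBE-1 and 111 and 103 FPKM in WT. Mcm2 had 112 and 72.2 FPKM in Eµ-/- cells, 120.1 and 103 FPKM in CBE-2, 119 and 90.4 FPKM in CBE-1 and 86.1 and 83.0 FPKM in WT. For both genes the 4 CBE libraries exceeded both WT libraries, and the Eµ-/- libraries lay on either side of WT. In the CBE lines the log2 differences were 0.35 ± 0.17, adjusted p = 0.202 for Mcm5 and 0.34 ± 0.20, adjusted p = 0.265 for Mcm2. Mcm4 was the subunit called with the block, in the CBE lines (0.39, adjusted p = 0.0343) and in CBE-2 (0.47, adjusted p = 0.0332). The order of the subunits by FPKM changed little. Mcm6 was highest in 7 of 8 libraries and Mcm3 in Eµ-/- library 1, Mcm4 was lowest in all 8, and the highest was between 2.04 and 2.58 times the lowest. The entry of Mcm7 holds those of 3 microRNA genes.

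Loaded rings become active with Cdc45, the 4 GINS subunits and Mcm10. Cdc45 (chromosome 16, 18780540 to 18812065 in mm9) had 61.4 and 63.3 FPKM in Eµ-/- cells, 67.2 and 70.2 FPKM in CBE-2, 60.8 and 61.8 FPKM in CBE-1 and 45.9 and 50.7 FPKM in WT. It was higher in each of the 6 mutant libraries than in both WT libraries. Cdc45 rose in the CBE lines (0.42 ± 0.08, adjusted p = 0.00921, lost without WT library 1 at adjusted p = 0.112), in CBE-2 (0.50 ± 0.09), in CBE-1 (0.34 ± 0.09) and in Eµ-/- cells (0.36 ± 0.09, adjusted p = 0.03, with an adjusted p up to 0.205 without a library). These comparisons share the WT libraries. Mcm10, which helps open the origin, had 38.1 and 29.8 FPKM in Eµ-/- cells, 33.4 and 32.0 FPKM in CBE-2, 34.1 and 28.0 FPKM in CBE-1 and 26.4 and 27.1 FPKM in WT. Its mutant libraries were all above WT, and no comparison called it (0.24 ± 0.13, adjusted p = 0.231 in the CBE lines). Gins2 had 70.6 and 50.9 FPKM in Eµ-/- cells, 68.4 and 56.5 FPKM in CBE-2, 69.0 and 49.8 FPKM in CBE-1 and 57.4 and 53.6 FPKM in WT, with wide overlap and no call. Its entry overlaps that of Gse1. Gins1, Gins3 and Gins4 had log2 differences between -0.12 and 0.17 in the CBE lines and no call.

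Cyclins E1 and E2 activate Cdk2 at the G1 to S boundary, and Ccne1 showed the largest rise of any member against WT, in CBE-2. Ccne1 (chromosome 7, 38883003 to 38892509 in mm9) had 17.6 and 18.9 FPKM in Eµ-/- cells, 32.0 and 30.1 FPKM in CBE-2, 24.6 and 24.0 FPKM in CBE-1 and 18.0 and 17.3 FPKM in WT. All 4 CBE libraries exceeded the 4 others, CBE-2 stood above CBE-1, and the Eµ-/- libraries lay beside WT. The mean in CBE-2 was 31.0 ± 1.34 FPKM, against 17.7 ± 0.472 FPKM in WT (SD, n = 2 each). Ccne1 rose 1.52-fold in the CBE lines (by a log2 difference of 0.61 ± 0.08, adjusted p = 0.00168), 1.72-fold in CBE-2 (0.78 ± 0.09, adjusted p = 0.00114) and 1.36-fold in CBE-1 (0.44 ± 0.09, adjusted p = 0.0149). It was lower in Eµ-/- cells than in the CBE lines (-0.57 ± 0.08, adjusted p = 0.00422), and its difference from WT there was 0.04 ± 0.09. The calls held in every leave-out fit except that for CBE-1, which was lost without either WT library or CBE-1 library 1 (adjusted p up to 0.127). With the block, CBE-2 was also above CBE-1 (0.34, adjusted p = 0.0352).

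Ccne2 had 23.2 and 19.2 FPKM in Eµ-/- cells, 25.4 and 29.6 FPKM in CBE-2, 26.7 and 18.9 FPKM in CBE-1 and 15.0 and 16.8 FPKM in WT. All 6 mutant libraries exceeded both WT libraries, with CBE-1 library 2 and Eµ-/- library 2 nearest to them. It rose in the CBE lines (0.62 ± 0.16, adjusted p = 0.035), a call lost without any of the WT or CBE-2 libraries (adjusted p up to 0.219), and in CBE-2 (0.75 ± 0.18, adjusted p = 0.032). Its entry overlaps that of Ints8, which had 26.5 and 26.8 FPKM in Eµ-/- cells, 21.7 and 21.3 FPKM in CBE-2, 29.7 and 21.7 FPKM in CBE-1 and 19.5 and 19.5 FPKM in WT. The ratio of Ccne1 to Ccne2 FPKM was 0.761 and 0.984 in Eµ-/- cells, 1.26 and 1.02 in CBE-2, 0.921 and 1.27 in CBE-1 and 1.20 and 1.03 in WT. The level of E2f1, the activator that drives many of these genes, was 14.0 and 13.0 FPKM in Eµ-/- cells, 13.0 and 11.9 FPKM in CBE-2, 13.4 and 10.9 FPKM in CBE-1 and 10.8 and 10.8 FPKM in WT. Every mutant library exceeded WT, although CBE-1 library 2 did so by little, and no comparison called it (0.29 ± 0.12, adjusted p = 0.128 in Eµ-/- cells).

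Cdc7 and its partner Dbf4 form the kinase that fires origins by phosphorylating the MCM ring. Cdc7 had 24.0 and 24.7 FPKM in Eµ-/- cells, 17.9 and 18.6 FPKM in CBE-2, 28.8 and 23.2 FPKM in CBE-1 and 16.5 and 18.5 FPKM in WT. CBE-1 and Eµ-/- cells stood above WT, and CBE-2 beside it. Cdc7 rose in Eµ-/- cells (0.45 ± 0.12, adjusted p = 0.0422) and in CBE-1 (0.54 ± 0.12, adjusted p = 0.026), and with the block it was lower in CBE-2 than in CBE-1 (-0.48, adjusted p = 0.0454). Dbf4 had 67.9 and 69.6 FPKM in Eµ-/- cells, 58.7 and 57.8 FPKM in CBE-2, 64.3 and 59.9 FPKM in CBE-1 and 54.5 and 55.4 FPKM in WT. Both Eµ-/- libraries were above all others, and Dbf4 rose there against WT (0.32 ± 0.08, adjusted p = 0.0364). The calls of Cdc7 and Dbf4 in Eµ-/- cells were lost without any of the WT or CBE-2 libraries or Eµ-/- library 2, with adjusted p up to 0.235 and 0.196, and that of Cdc7 also without Eµ-/- library 1. In CBE-1 Cdc7 lost its call without any WT library, any CBE-2 library or CBE-1 library 1 (adjusted p up to 0.163).

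Pcna is loaded onto DNA by replication factor C, made of Rfc1 to Rfc5. The Pcna level was higher in the 4 CBE libraries than in both WT libraries, by a log2 difference of 0.40 ± 0.16, adjusted p = 0.135, which passed the threshold with the replicate block (adjusted p = 0.0229). Rfc4 had 70.6 and 68.8 FPKM in Eµ-/- cells, 104 and 112 FPKM in CBE-2, 71.9 and 87.1 FPKM in CBE-1 and 65.5 and 70.8 FPKM in WT. The CBE-2 libraries lay above all others. Rfc4 rose in CBE-2 against WT (0.66 ± 0.12, adjusted p = 0.0087) and in the CBE lines together (0.44 ± 0.10, adjusted p = 0.0232, lost without any of the WT or CBE-2 libraries, adjusted p up to 0.182). Against the CBE lines it was lower in Eµ-/- cells (-0.40 ± 0.10, adjusted p = 0.0464), a call kept without 1 of the 8 libraries (CBE-1 library 1) and lost without any other. That call held under 6 of 11 other settings, and was lost with TPM and quantile scaling among others. With the block Rfc4 was higher in CBE-2 than in CBE-1 (0.45, adjusted p = 0.0232). Its entry overlaps that of Eif4a2, which had 114 and 93.7 FPKM in Eµ-/- cells, 78.4 and 76.4 FPKM in CBE-2, 94.9 and 65.1 FPKM in CBE-1 and 96.6 and 100.4 FPKM in WT.

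Rfc1, the large subunit of the clamp loader, set the CBE lines apart. It had 39.6 and 39.2 FPKM in CBE-2, against 27.3 and 26.5 FPKM in CBE-1, with 27.8 and 29.4 FPKM in Eµ-/- cells and 29.5 and 33.0 FPKM in WT. CBE-2 exceeded every other library, and CBE-1 was below every other. Rfc1 was higher in CBE-2 than in CBE-1 (0.53 ± 0.09, adjusted p = 0.0141), a call lost without any 1 of these 4 libraries (adjusted p up to 0.119). Rfc2, Rfc3 and Rfc5 were not called in any comparison, with log2 differences between -0.24 and -0.02 in Eµ-/- cells and of at most 0.08 in the CBE lines.

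Polymerase alpha with primase starts each new strand, polymerase delta extends the lagging strand and polymerase epsilon the leading strand. Pola1 had 29.0 and 28.8 FPKM in Eµ-/- cells, 26.1 and 25.5 FPKM in CBE-2, 27.5 and 24.2 FPKM in CBE-1 and 20.5 and 21.6 FPKM in WT. All 6 mutant libraries exceeded WT, those of Eµ-/- cells most. Pola1 rose in Eµ-/- cells (0.44 ± 0.09, adjusted p = 0.0193, with an adjusted p up to 0.137 without a WT, a CBE-2 or the second Eµ-/- library). Within 150 kb of Pola1, 2 other genes were tested, Pcyt1b and Pdk3, and both were called higher in the same comparison, as were the 2 tested neighbours of Dbf4, Rundc3b and Slc25a40. Of all genes 11.3% were called higher there. The window was chosen after the values were seen. Pold2, the small subunit of polymerase delta, had 94.7 and 96.3 FPKM in Eµ-/- cells, 146 and 144 FPKM in CBE-2, 119 and 123 FPKM in CBE-1 and 121 and 122 FPKM in WT. The Eµ-/- libraries were below all others and CBE-2 above all others. Pold2 fell in Eµ-/- cells against WT (-0.34 ± 0.08, adjusted p = 0.0264) and against the CBE lines (-0.47 ± 0.07, adjusted p = 0.0064). The second call held in all 8 leave-out fits, and the first was lost without any WT or CBE-2 library (adjusted p up to 0.155) and with TPM or quantile scaling. Pole, the polymerase epsilon catalytic subunit, had 17.6 and 16.1 FPKM in Eµ-/- cells, 18.3 and 19.9 FPKM in CBE-2, 17.7 and 14.4 FPKM in CBE-1 and 12.5 and 14.0 FPKM in WT. It rose in CBE-2 (0.50 ± 0.13, adjusted p = 0.0391, lost without any of its own or the WT libraries, adjusted p up to 0.233, and with median-of-ratios or quantile scaling). Prim1, Prim2, Pold1 and Pold3 had positive log2 differences between 0.15 and 0.25 in the CBE lines and no call without the block.

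Pole2, the second subunit of polymerase epsilon, differed more than any other member, in every comparison. It lies at chromosome 12, 70302766 to 70329177 (mm9), and had 141 and 135 FPKM in Eµ-/- cells, 36.6 and 35.4 FPKM in CBE-2, 90.1 and 121 FPKM in CBE-1 and 262 and 285 FPKM in WT. The lines did not overlap, with WT highest, then Eµ-/- cells, CBE-1 and CBE-2. The line means were 50.5%, 13.2% and 38.7% of WT in Eµ-/- cells, CBE-2 and CBE-1. Pole2 fell in the CBE lines (by a log2 difference of -2.13 ± 0.13, adjusted p = 5.92e-05), in CBE-2 (-2.89 ± 0.15, adjusted p = 3.1e-05), in CBE-1 (-1.38 ± 0.15, adjusted p = 0.00102) and in Eµ-/- cells (-0.98 ± 0.15, adjusted p = 0.00467). It was also lower in CBE-2 than in CBE-1 (-1.51 ± 0.15, adjusted p = 0.00133) and higher in Eµ-/- cells than in the CBE lines (1.15 ± 0.13, adjusted p = 0.00163). These 6 calls held in all 8 leave-out fits and in all 11 other settings. The ratio of Pole2 to Pole FPKM was 8.06 and 8.38 in Eµ-/- cells, 2.00 and 1.78 in CBE-2, 5.09 and 8.45 in CBE-1 and 21.1 and 20.3 in WT.

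Genes on both sides of Pole2 moved with it. Within 150 kb, a window chosen after the values were seen, 10 other genes were tested, and Dnaaf2, Klhdc1 and Klhdc2 were called in the same direction as Pole2 in each of the 6 comparisons. Dnaaf2, a dynein arm assembly factor 3.35 kb away, had 72.0 and 70.8 FPKM in Eµ-/- cells, 22.5 and 22.0 FPKM in CBE-2, 40.3 and 47.0 FPKM in CBE-1 and 122 and 124 FPKM in WT. Klhdc1, 13.6 kb away on the other side, had 50.9 and 61.8 FPKM in Eµ-/- cells, 7.37 and 9.60 FPKM in CBE-2, 40.0 and 62.9 FPKM in CBE-1 and 93.9 and 104 FPKM in WT. In CBE-2 the mean of Klhdc1 was 8.58% of WT, and the log2 differences were -3.40 ± 0.23, adjusted p = 0.000115 there, -0.96 ± 0.23, adjusted p = 0.0298 in CBE-1 and -0.81 ± 0.23, adjusted p = 0.0498 in Eµ-/- cells. Klhdc2, 68.5 kb away, had 202 and 232 FPKM in Eµ-/- cells, 78.4 and 83.5 FPKM in CBE-2, 132 and 119.9 FPKM in CBE-1 and 332 and 373 FPKM in WT, or 61.6%, 23.0% and 35.8% of WT by the means of the 3 mutant lines. Mgat2 and 9330151L19Rik were called lower in the CBE lines (-0.51 and -1.27) and in CBE-2 (-0.68 and -1.42). The genes further out, Rps29, Lrr1 and Rpl36al on one side and Nemf and Arf6 on the other, were not called against WT in any mutant line. Nemf, which starts within 1 kb of the end of Klhdc2, had 19.5 and 18.1 FPKM in Eµ-/- cells, 17.3 and 16.9 FPKM in CBE-2, 18.9 and 16.2 FPKM in CBE-1 and 16.4 and 16.2 FPKM in WT. Leave-out fits were not run for the neighbours. For Ccne1 (3 tested neighbours within 150 kb), Cdc45 (4), Orc6 (3) and Rrm2 (1), 0 were called in the same direction. The same held for Ccne2 (5), Pole (7) and Rfc1 (5), in every comparison that called the member. Cdc7 had 0 tested neighbours. Counts this small do not set these members apart from others. Gmnn, Dbf4, Pola1, Chaf1a, Pold2 and Rfc4 each had at least 1 such neighbour in some comparison. For Chaf1a these were 2 of 11 in the CBE lines, where 12.5% of all genes were called higher. For Pold2 they were 1 of 6 in Eµ-/- cells against WT, where 10.4% were called lower. For Rfc4 they were 1 of 3 in Eµ-/- cells against the CBE lines, where 7.25% were called lower. In the opposite direction, 1 neighbour was called for Cdc45 in every comparison that called it, for Ccne1 in CBE-1 and for Pole in CBE-2. The same held for Rrm2 and Ccne2 in the CBE lines, for Chaf1a in the CBE lines and in CBE-2, and for Pold2 in Eµ-/- cells against WT.

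**Figure D3:**
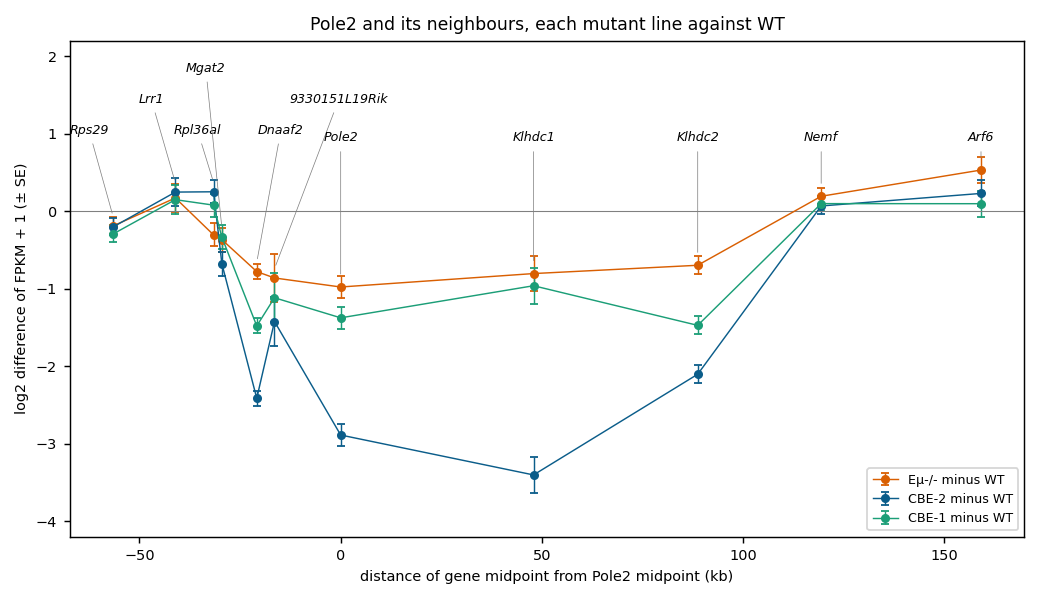
Log2 difference of FPKM + 1 (± SE) of Pole2 and 10 neighbours against WT, placed by distance in kb from the midpoint of Pole2, for Eµ-/- cells, CBE-2 and CBE-1. Dnaaf2, Pole2, Klhdc1 and Klhdc2 form a trough in all 3 lines, deepest in CBE-2, and Nemf next to Klhdc2 is back near 0.

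Replication protein A coats the single strands that the helicase exposes. Rpa1, its large subunit, had a log2 difference of 0.49 ± 0.14, adjusted p = 0.0511 in the CBE lines, called with the block (adjusted p = 0.00659). Its 4 CBE libraries, between 87.7 and 105 FPKM, were above both WT libraries, at 72.7 and 66.3 FPKM. Rpa2 had 83.4 and 76.1 FPKM in Eµ-/- cells, 99.1 and 91.1 FPKM in CBE-2, 81.6 and 73.2 FPKM in CBE-1 and 84.6 and 80.4 FPKM in WT, and Rpa3 differed by -0.04 in the CBE lines, neither with a call, although with the block Rpa2 was higher in CBE-2 than in CBE-1 (0.29, adjusted p = 0.0355). Lig1, which seals Okazaki fragments, had 77.5 and 41.3 FPKM in Eµ-/- cells, 92.1 and 79.6 FPKM in CBE-2, 89.0 and 64.2 FPKM in CBE-1 and 60.8 and 57.7 FPKM in WT. The 4 CBE libraries exceeded WT, and the Eµ-/- libraries lay on either side of it and differed most between themselves. Lig1 was not called (0.43 ± 0.25, adjusted p = 0.279 in the CBE lines).

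Among the enzymes of nucleotide supply, 1 of 4 was called. Rrm2, the ribonucleotide reductase subunit made in S phase, had 223 and 172 FPKM in Eµ-/- cells, 183 and 172 FPKM in CBE-2, 192 and 182 FPKM in CBE-1 and 143 and 126 FPKM in WT. All 6 mutant libraries exceeded WT. Rrm2 rose in Eµ-/- cells (0.54 ± 0.14, adjusted p = 0.0381) and in the CBE lines (0.44 ± 0.12, adjusted p = 0.0475). Both calls were lost with median-of-ratios scaling and with no filter. The Eµ-/- call was also lost with only the libraries compared, and the CBE call with a pseudocount of 5 or the filter of 5 FPKM on average. The first call was kept in 1 of 8 leave-out fits, that without Eµ-/- library 2, and the second was lost without any library of WT or of the CBE lines, with adjusted p up to 0.209 and 0.318. Rrm1, the large subunit, was called in the CBE lines with the block (0.37, adjusted p = 0.0399). Tyms, which makes thymidylate, had 36.2 and 33.9 FPKM in Eµ-/- cells, 34.5 and 38.2 FPKM in CBE-2, 37.5 and 39.1 FPKM in CBE-1 and 36.3 and 39.5 FPKM in WT. Tk1, which salvages thymidine, had 68.4 and 49.9 FPKM in Eµ-/- cells, 77.9 and 75.4 FPKM in CBE-2, 60.9 and 61.7 FPKM in CBE-1 and 64.7 and 61.9 FPKM in WT. Neither was called, and the lines overlapped for Tyms, while for Tk1 both CBE-2 libraries exceeded all others.

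Chromatin assembly factor 1 places histones on new DNA. Its large subunit Chaf1a had 39.6 and 37.7 FPKM in Eµ-/- cells, 44.2 and 41.2 FPKM in CBE-2, 41.4 and 35.5 FPKM in CBE-1 and 31.8 and 32.9 FPKM in WT. All 6 mutant libraries exceeded WT, and Chaf1a rose in the CBE lines (0.31 ± 0.09, adjusted p = 0.0484) and in CBE-2 (0.39 ± 0.10, adjusted p = 0.0429). The first call was lost without either WT library, CBE-1 library 1 or either CBE-2 library (adjusted p up to 0.261) and under 5 of 11 other settings. Within 150 kb of Chaf1a, 2 of 11 tested neighbours, Mpnd and Sh3gl1, were called in the same direction. Chaf1b was not called (0.11).

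The CBE lines share a genotype label, and between them 2 members were called. CBE-2 was higher than CBE-1 in Rfc1 and lower in Pole2, with 5.17% of all genes called higher, 5.03% lower and 10.2% either way. The median log2 difference of the members was 0.12 (all genes 0.03), and 39 of 50 were positive. Without overlap, 17 of 50 members lay higher and 4 of 50 lower in CBE-2, beside 29% and 24.1% of all genes. With the block 7 of 50 members were called, 5 higher and 2 lower. Of all genes 8.25% were called higher with the block, 8.32% lower and 16.6% either way. The block added Ccne1, Rfc4, Prim1 and Rpa2, which were higher in CBE-2, and Cdc7, which was lower there. In the list of 30 genes of G2 and mitosis the median of the same difference was -0.18, with 26 of 30 negative.

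Eµ-/- cells differed from the CBE lines in 5 members. Pole2 was higher and Ccne1, Gmnn, Pold2 and Rfc4 were lower in Eµ-/- cells, with 5.16% of all genes called higher, 7.25% lower and 12.4% either way. The median log2 difference was -0.12 (all genes -0.01), with 36 of 50 negative. Without overlap, 3 of 50 members lay higher and 8 of 50 lower in Eµ-/- cells, beside 11.7% and 13.8% of all genes. With the block 8 of 50 members were called, 1 higher and 7 lower. Of all genes 9.86% were called higher with the block, 12.4% lower and 22.2% either way. The block added Orc6 (-0.27, adjusted p = 0.025), Prim2 (-0.22, adjusted p = 0.0487) and Rpa1 (-0.37, adjusted p = 0.0269), all lower.

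Over the 6 comparisons 15 members were called at least once and 35 never, and with the block 25 and 25. Of all genes, between 10.2% and 22.3% were called in a single comparison, and between 16.6% and 34% with the block. The share of all genes called at least once was not counted, so the members' counts have no such share beside them. Same-numbered libraries deviated together across lines. In the library numbered 2, 37 of 50 members were lower than in library 1 of Eµ-/- cells. The counts were 33 in CBE-2, 38 in CBE-1 and 23 in WT. Of all genes 41.4%, 44.1%, 44.1% and 48.6% were lower, in the same order of lines. The members' share was above that of all genes in each mutant line and near it in WT. The MCM subunits had medians of -0.59 in Eµ-/- cells, -0.21 in CBE-2, -0.34 in CBE-1 and -0.08 in WT, and 6 of 6 were lower in each mutant line and 4 of 6 in WT. Lig1 differed by -0.89 in Eµ-/- cells, -0.21 in CBE-2, -0.47 in CBE-1 and -0.07 in WT. Across the 50 members the differences correlated between lines with Pearson's r between 0.62 and 0.83, as a description over genes that share their libraries. Of the 30 genes of G2 and mitosis, 24 were lower in library 2 of Eµ-/- cells, 24 in CBE-2, 26 in CBE-1 and 29 in WT. What the replicate number stands for is not given in the labels, and its part in the results was tested only as the block.

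**Figure D4:**
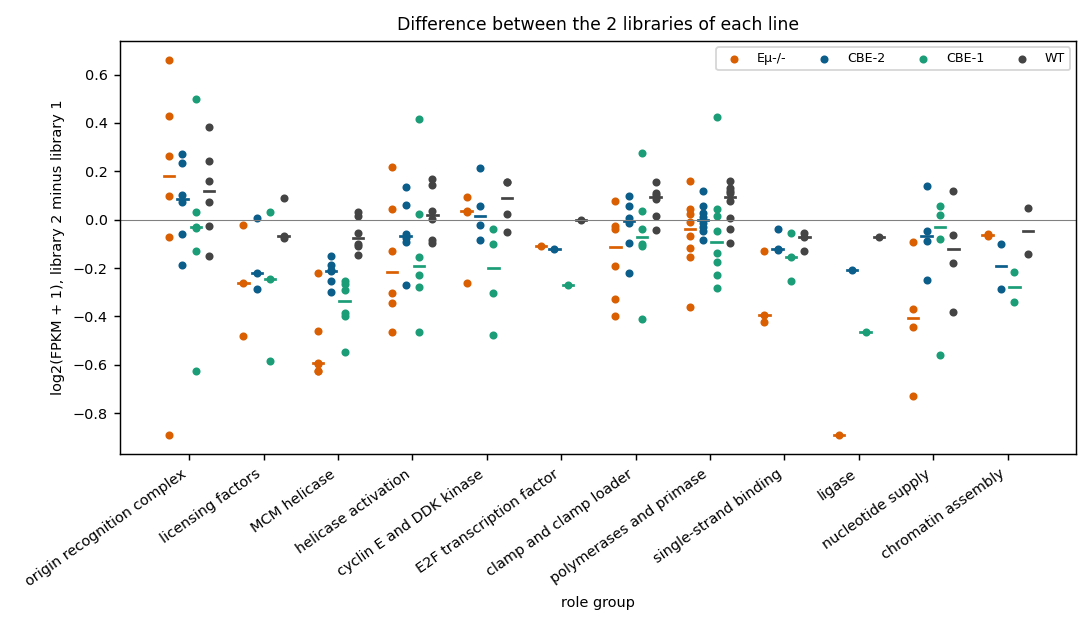
Log2(FPKM + 1) of library 2 minus library 1 for each member (points) by role group, with bars for the group's median, for Eµ-/- cells, CBE-2, CBE-1 and WT. The MCM points lie below 0 in all 3 mutant lines, with the lowest median in Eµ-/- cells, where Lig1 is at -0.89.

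Of 58 further genes of replication and S phase, 10 were higher and 1 lower in the CBE lines against WT, 12 and 0 in CBE-2, 5 and 1 in CBE-1 and 11 and 4 in Eµ-/- cells. The shares of all genes called higher and lower were 12.5% and 9.78% in the CBE lines, 10.5% and 8.19% in CBE-2, 10.9% and 8.54% in CBE-1 and 11.3% and 10.4% in Eµ-/- cells. The median log2 difference was 0.23 in the CBE lines (all genes 0.03) and 0.11 in Eµ-/- cells (all genes 0.01). Among the genes called, the largest changes in the CBE lines were those of Samhd1, which degrades nucleotides, with 4.17 and 4.10 FPKM in Eµ-/- cells, 8.59 and 8.20 FPKM in CBE-2, 7.05 and 8.98 FPKM in CBE-1 and 3.93 and 2.93 FPKM in WT (1.06 ± 0.13, adjusted p = 0.00163), of the E2F family member E2f2 (0.66 ± 0.10, adjusted p = 0.00521) and of the ribonuclease H2 subunit Rnaseh2c (-0.62 ± 0.17, adjusted p = 0.0455). Samhd1 was higher in all 6 mutant libraries than in WT. In Eµ-/- cells the largest among those called were those of E2f5 (0.86 ± 0.14, adjusted p = 0.00747), Rnaseh2c (-0.81 ± 0.20, adjusted p = 0.0315) and E2f8 (0.74 ± 0.21, adjusted p = 0.0499). Between the CBE lines 1 was called, Skp2, higher in CBE-2 (0.57 ± 0.13, adjusted p = 0.0405). Against the CBE lines 3 were lower in Eµ-/- cells, Samhd1 (-0.84 ± 0.13, adjusted p = 0.00788), E2f6 (-0.60 ± 0.09, adjusted p = 0.00632) and Dtymk (-0.52 ± 0.10, adjusted p = 0.0206). In the list of 30 genes of G2 and mitosis, 7 were higher and 0 lower in the CBE lines, 3 and 0 in CBE-2, 9 and 0 in CBE-1 and 7 and 0 in Eµ-/- cells. These are 23.3%, 10%, 30% and 23.3% of the list. Of all genes 12.5%, 10.5%, 10.9% and 11.3% were called higher in these comparisons.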

How the data were processed

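RNA was measured in 8 libraries, 2 each of 4 pro-B cell lines. Stranded poly(A) libraries were sequenced as single reads, per the labels' protocols. The authors deposited FPKM with an interval and a status per gene, per the file headers, made with TopHat and Cufflinks on mm9, per the submitters' processing notes (versions, settings and use of strand: not given in the sources used here). Each file held 24459 entries under 23929 symbols; the FPKM of 277 symbols with several entries were summed, and 21 symbols lacking the status OK in some library were dropped. Coordinates are 1-based. Depth was taken from the intervals, read as counting error alone. Of low values, 56.1% came out as whole reads (tolerance 0.01), which did not allow a count test.

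The 10479 genes that reached 1 FPKM in at least 2 libraries were compared after a log2(FPKM + 1) transform. The test was that of limma 3.58.1 (R 4.3.3), with moderated contrasts with a mean-variance trend over all 8 libraries, with 4 residual and 2.65 prior degrees of freedom. Fold changes on this scale understate the change of low genes. A gene was called at a Benjamini-Hochberg adjusted p under 0.05 over all genes tested, and errors after ± are SE unless given as SD. Where a sentence gives a second p, it is the adjusted p of the same test under the setting named. Whether a line's libraries are separate cultures is not in the labels, so a p-value here reflects library-to-library spread that may be technical. The replicate numbers of the labels pair the libraries: the deviations of same-numbered libraries correlated at 0.279 to 0.502 in all 6 pairs of lines, so the blocked result is given where it changed a call.

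Values in every library were given for 22 members named in the rule, for up to 4 called members per comparison with the largest differences and no overlap between groups, and for the members of lowest and highest mean FPKM; the neighbours of members, Rpa1 and Samhd1's values in each library were chosen after values were seen. The members, lists, naming rule and comparisons were chosen with earlier results of these data known. One pro-B marker of the list is not reported here. The test was tried on simulated data for Eµ-/- cells against WT. Log2 changes of 0.5, 1 and 2 were added to 67, 67 and 66 genes. It recovered 28.4%, 70.1% and 93.9% of them, with 5 false calls. In the data 2284 genes were called in this comparison, so recovery there may differ. A member not called is thus not shown to be unchanged. The alternatives tried were other pseudocounts (0.1 or 5), filters (none, or 5 FPKM on average) and scalings (quantile, TPM or median-of-ratios). Further ones dropped the trend, fitted only the libraries compared, added a replicate block, kept the highest entry of a symbol or left out each library in turn.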

Additional observations from a re-analysis of the deposited data

Results flagged for a closer look

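The 7 results below are members whose effects differed between lines by a limma test of the difference itself, with Benjamini-Hochberg adjustment over 10479 genes. Between the CBE lines, which share a genotype label, Pole2 was lower in CBE-2 than in CBE-1 by a log2 difference of -1.51 (adjusted p = 0.00133), and Rfc1 was higher by 0.53 (adjusted p = 0.0141). Between Eµ-/- cells and the CBE lines, Pole2 was higher by 1.15 (adjusted p = 0.00163). Ccne1 differed by -0.57 (adjusted p = 0.00422), Gmnn by -0.78 (adjusted p = 0.0255), Pold2 by -0.47 (adjusted p = 0.00640) and Rfc4 by -0.40 (adjusted p = 0.0464), each lower in Eµ-/- cells.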

How the results depend on the processing

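No call of a member changed sign under any of 11 other settings or 8 leave-outs. Counts of called members moved by over 1.5 times as follows. With the replicate block they were 16 in the CBE lines against WT (8 as reported), 19 in CBE-2 against WT (8), 8 in CBE-1 against WT (5), 7 in CBE-2 against CBE-1 (2) and 8 in Eµ-/- cells against the CBE lines (5), while in Eµ-/- cells against WT the count was 9 (8). With only the libraries compared they were 28 in CBE-2 and 3 in CBE-1 against WT, beside 3527 and 1617 of all 10479 genes. In Eµ-/- cells they were 1 against WT and 3 against the CBE lines, beside 1255 and 873 of all genes. With no filter they were 5 in Eµ-/- cells against WT and 5 in CBE-2 against CBE-1, beside 2758 and 1495 of 16290 genes. With median-of-ratios scaling they were 5 in Eµ-/- cells against WT, beside 2327 of 10479 genes. With 1 library left out they were between 3 and 11 in the CBE lines against WT, 2 and 15 in CBE-2 against WT, 1 and 7 in CBE-1 against WT, 1 and 10 in Eµ-/- cells against WT, 1 and 4 in CBE-2 against CBE-1 and 3 and 11 in Eµ-/- cells against the CBE lines; the line left with 1 library was assumed to vary like the others. Calls over all genes also moved, and their counts in the leave-out fits are not given here. The cause of these moves was not tested beyond the fewer libraries in the leave-outs. The half-widths of the deposited 95% intervals of members were at most 7.51% of the value, and which of depth and the 2 libraries a line limits a given SE was not tested.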
